A study of Mus musculus with 6 samples.

Results

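Hemoglobin and red cell genes were followed in L3-5 DRG taken on the injured side 14 days after ankle surgery. They were picked by gene symbol from a list of 9 genes. That list was chosen with earlier results of these data known. Of the 9 genes, 8 had values among the 22064 gene rows of the expression table. These were the adult alpha globins Hba-a1 and Hba-a2, the adult beta globins Hbb-bs and Hbb-bt, Alas2, Slc4a1, Epb42 and Trim10. Ahsp, a chaperone of free alpha globin, was not analysed here. All animals were wild-type C57BL/6 mice, young adults of both sexes were used in the study, and the sex behind each library was not stated. In LAS model mice the anterior talofibular and calcaneal fibular ligaments were both cut, and in sham mice the same place was opened with the ligaments left whole. Each group had 3 libraries. Mice of both groups were perfused with saline before the ganglia were removed. Nothing stated whether a library held 1 animal or several, so p-values measured only the spread between these 6 libraries, which may be technical.

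Mature red cells have lost their nucleus but young ones, the reticulocytes, still carry RNA, most of it globin. Hemoglobin is built from alpha and beta globin chains, each holding a heme group whose synthesis in erythroid cells starts with the enzyme encoded by Alas2. Slc4a1 encodes band 3, the anion exchanger of the red cell membrane, and Epb42 encodes protein 4.2, which ties band 3 to the membrane skeleton. Trim10 encodes a RING finger protein of maturing erythroid cells. Blood left in the vessels of a tissue carries such cells. Globin transcripts have also been described in some neurons. In bulk tissue, fewer cells of a type and less RNA per cell cannot be told apart.

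The adult globin genes come as close copies, which bears on how reads could be shared between them. In the mouse transcripts of GENCODE M21 (GRCm38), the coding sequences of Hba-a1 and Hba-a2 were 429 bases long and differed at 1 base, C381T, counted from 1 at the A of the start codon with the base of Hba-a1 given first. Those of Hbb-bs and Hbb-bt were 444 bases long and also differed at 1 base, C417T, with the base of Hbb-bs given first. The 41 coding bases around each difference are shown because they are the whole coding distinction between the copies. The differing base is in capitals.
Hba-a1, chromosome 11: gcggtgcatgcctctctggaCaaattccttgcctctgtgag
Hba-a2, chromosome 11: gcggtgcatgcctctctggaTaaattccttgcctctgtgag
Hbb-bs, chromosome 7: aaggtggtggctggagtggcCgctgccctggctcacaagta
Hbb-bt, chromosome 7: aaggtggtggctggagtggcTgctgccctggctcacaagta
Of all 50-base windows along the Hba-a1 transcript, untranslated ends included, 67.5% were also in Hba-a2, and 86.9% of those of Hba-a2 were in Hba-a1. The shares were 65.8% and 58.3% for Hbb-bs and Hbb-bt. No window of Hba-a1 was in Hbb-bs. The split of reads within each pair is therefore uncertain, and the sums of both alpha and of both beta genes are given beside the single genes.

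The starts of these genes are shown as a description, and their part in the levels of the transcripts was not tested. RefSeq windows of 250 bases before to 50 bases after the start (GRCm38.p6) were found for 7 of the 8 genes. GATAA, the core of the sequence bound by GATA factors such as the erythroid factor GATA1, was searched on both strands and is in capitals, as TTATC where it lies on the other strand.
Hba-a1, chr11:32283422-32283721, plus strand: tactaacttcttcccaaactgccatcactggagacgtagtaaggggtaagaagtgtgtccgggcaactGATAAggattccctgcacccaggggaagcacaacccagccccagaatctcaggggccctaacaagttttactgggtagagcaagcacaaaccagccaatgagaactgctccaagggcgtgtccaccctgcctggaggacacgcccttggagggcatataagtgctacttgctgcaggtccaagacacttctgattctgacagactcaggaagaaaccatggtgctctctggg
Hbb-bs, chr7:103827879-103828178, minus strand: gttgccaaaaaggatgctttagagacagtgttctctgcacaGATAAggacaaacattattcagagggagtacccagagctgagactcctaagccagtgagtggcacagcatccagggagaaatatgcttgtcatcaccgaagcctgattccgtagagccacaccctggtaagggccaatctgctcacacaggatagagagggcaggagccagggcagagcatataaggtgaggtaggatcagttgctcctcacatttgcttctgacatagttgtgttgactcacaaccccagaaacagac
Alas2, chrX:150547167-150547466, plus strand: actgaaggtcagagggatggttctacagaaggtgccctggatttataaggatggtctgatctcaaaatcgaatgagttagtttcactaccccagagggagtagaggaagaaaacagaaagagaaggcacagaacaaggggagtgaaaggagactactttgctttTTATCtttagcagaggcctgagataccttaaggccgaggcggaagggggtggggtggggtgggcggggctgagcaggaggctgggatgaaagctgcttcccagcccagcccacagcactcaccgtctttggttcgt
Trim10, chr17:36869324-36869623, plus strand: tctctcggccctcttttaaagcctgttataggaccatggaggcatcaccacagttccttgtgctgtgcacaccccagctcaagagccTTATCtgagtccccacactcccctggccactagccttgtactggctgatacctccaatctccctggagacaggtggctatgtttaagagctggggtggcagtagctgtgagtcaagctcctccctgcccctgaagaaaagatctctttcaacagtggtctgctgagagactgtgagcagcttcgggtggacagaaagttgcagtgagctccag
GATAA was in the windows of 7 of 7 genes and in 25.4% of all 32851 windows of this length. TATAA, the core of the TATA box, was also in 7 of 7 and in 24.9% of all windows. In the 4 globin genes it lay on the gene's own strand and began 27 to 30 bases before the start, where a TATA box is usually found. In Alas2, Epb42 and Trim10 the nearest match began 207, 125 and 225 bases before the start, away from that place. CCAAT was in 5 of 7 and in 37.4% of all windows. CCNCNCCC, a pattern read by erythroid KLF1 among other factors, was in 3 of 7, which were Alas2, Hbb-bs and Hbb-bt, and in 49.5% of all windows. The patterns were counted separately where they overlapped. Hba-a1 and Hba-a2 have near-copies of the same window, so the 7 genes are not 7 separate cases. The windows of Hbb-bs and Hbb-bt differ more, with 1 and 3 CCAAT matches and 1 and 2 TATAA matches in that order. A match in these letters is not a bound site.

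Sham replicate 3 stood apart from the rest over all 14006 genes tested, and the groups are therefore compared with and without it. The log2 levels of that library had a mean correlation of 0.969 with those of the others, which among themselves and with it averaged 0.984 to 0.986. Between 12740 and 13215 genes reached 1 FPKM in a library. FPKM values are scaled to gene length and library depth and carry no counts, so the number of reads behind each value is unknown. Sensory neuron genes, which mark the labelled tissue, were all measured (12 of 12), with a summed level of 11763 to 12089 FPKM in sham and 11555 to 12183 FPKM in LAS libraries.

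The alpha globins were among the most abundant transcripts of the ganglion, and the sham and LAS groups overlapped for both. Hba-a1 was at 1095, 1296 and 3912 FPKM in sham, always listed in the order of replicates 1, 2 and 3, and at 2031, 1329 and 1585 FPKM in LAS libraries. Hba-a2 was at 1301, 1734 and 5626 FPKM in sham and at 2239, 2007 and 2285 FPKM in LAS libraries. For both genes sham replicate 3 was above every LAS library and sham replicates 1 and 2 were below every one. Hba-a2 ranked 1 among all genes in sham replicate 3 and between 5 and 20 in the other libraries. Summed alpha globin averaged 4988 ± 3953 FPKM over sham libraries (SD, n = 3) and 3825 ± 469 FPKM over LAS libraries (SD, n = 3).

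The beta globins showed the same placing of the libraries. Hbb-bs was at 1104, 1277 and 4113 FPKM in sham and at 1922, 1484 and 1715 FPKM in LAS libraries. Hbb-bt was the lowest of the 4 on this per-length scale, at 105, 115 and 427 FPKM in sham and at 205, 123 and 123 FPKM in LAS libraries. Sham replicate 3 was again the highest, and the other sham libraries the lowest. Hbb-bt made up 6.70% to 9.64% of the beta sum, with the lowest share in LAS replicate 3 and the highest in LAS replicate 1. Summed beta globin averaged 2380 ± 1873 FPKM over sham libraries (SD, n = 3) and 1857 ± 261 FPKM over LAS libraries (SD, n = 3).

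Alpha and beta globin kept nearly 1 ratio while their level varied. The alpha sum was 1.98, 2.18 and 2.10 times the beta sum in sham libraries and 2.01, 2.08 and 2.11 times in LAS libraries. The 4 globin genes together were at 3605, 4422 and 14078.5 FPKM in sham and at 6398, 4943 and 5707 FPKM in LAS libraries. They held 0.905%, 1.11% and 3.14% of all FPKM in the sham libraries and 1.56%, 1.20% and 1.41% in the LAS libraries. Sham replicate 3 thus carried 3.51 times the mean of sham replicates 1 and 2, and the LAS mean was 1.42 times that mean.

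**Figure D1:**
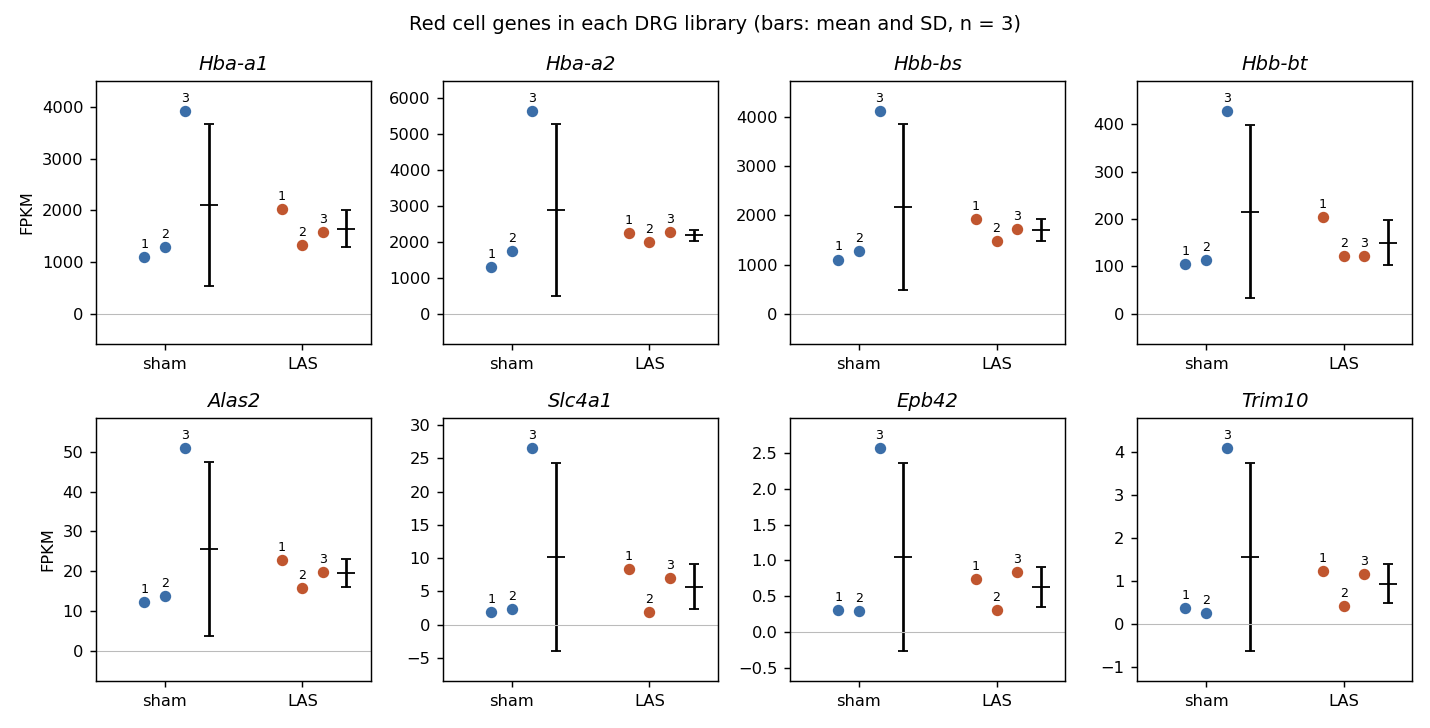
FPKM of each of the 8 genes in every library, numbered by replicate, with the mean and SD of each group (n = 3). Sham replicate 3 is the highest point in all 8 panels, and sham replicates 1 and 2 lie at or below LAS replicate 2 except for Slc4a1.

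Alas2 followed the globins closely. It was at 12.1, 13.6 and 51.0 FPKM in sham and at 22.8, 15.8 and 19.7 FPKM in LAS libraries, so that again the LAS libraries lay between sham replicate 3 and the other sham libraries. For each 1000 FPKM of globin there were 3.08 to 3.62 FPKM of Alas2 in all 6 libraries. The lowest of these values was in sham replicate 2 and the highest in sham replicate 3.

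Slc4a1, Epb42 and Trim10 were much lower and varied over a wider range than globin. Slc4a1 was at 1.88, 2.29 and 26.6 FPKM in sham and at 8.33, 1.87 and 6.99 FPKM in LAS libraries. Its level in sham replicate 3 was 12.7 times the mean of sham replicates 1 and 2. LAS replicates 1 and 3 were at 4.0 and 3.35 times that mean, and LAS replicate 2 at 0.897 times. For this gene LAS replicate 2 therefore sat with the low sham libraries and not with the other LAS libraries.

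Epb42 was at 0.30, 0.29 and 2.57 FPKM in sham and at 0.74, 0.31 and 0.84 FPKM in LAS libraries. Trim10 was at 0.36, 0.25 and 4.09 FPKM in sham and at 1.24, 0.42 and 1.15 FPKM in LAS libraries. Both were at 0.5 FPKM or more only in sham replicate 3 and LAS replicates 1 and 3, and so entered the test through those libraries. In LAS replicate 2 Epb42 differed from the low sham libraries by no more than 0.02 FPKM, which is close to the rounding of the values. These 3 genes were at 8.71 to 13.4 times the mean of sham replicates 1 and 2 in sham replicate 3, where the globins and Alas2 were at 3.27 to 3.96 times.

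**Figure D2:**
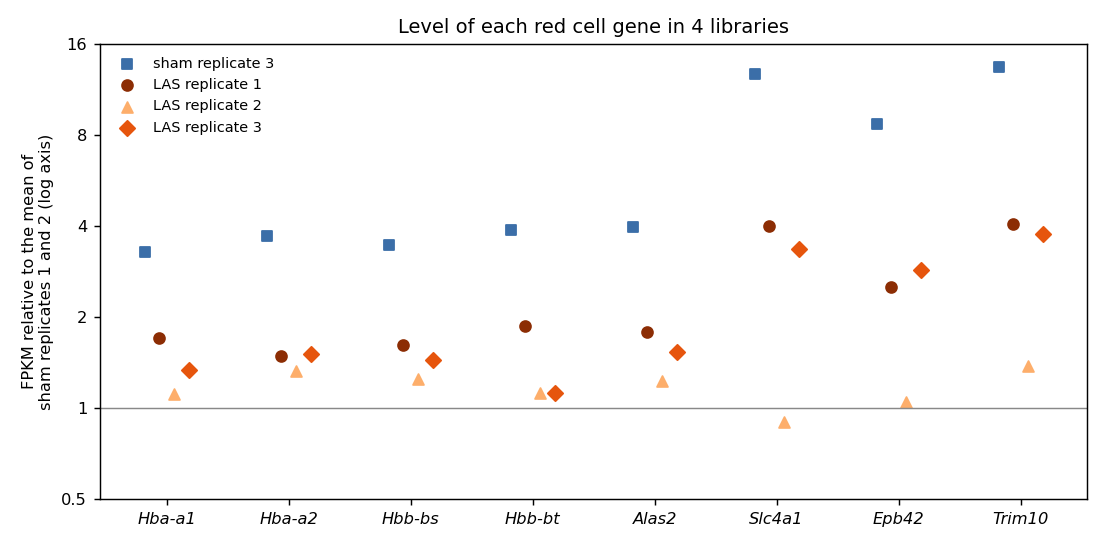
Level of each gene in sham replicate 3 and the LAS libraries, divided by the mean of sham replicates 1 and 2, on a log axis. The globins and Alas2 lie at 3.27 to 3.96 in sham replicate 3, and Slc4a1, Epb42 and Trim10 at 8.71 to 13.4, while LAS replicate 2 lies between 0.897 and 1.38 for all 8 genes.

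These genes could be read against each other within each library. For each FPKM of Alas2 there were 0.155, 0.168 and 0.521 FPKM of Slc4a1 in sham and 0.365, 0.118 and 0.355 FPKM in LAS libraries. The ratio was lowest in sham replicates 1 and 2 and LAS replicate 2, and at least 2.11 times higher in the other 3 libraries. Trim10 gave 0.0298, 0.0183 and 0.0803 FPKM for each FPKM of Alas2 in sham and 0.0543, 0.0266 and 0.0584 FPKM in LAS libraries. The same 3 libraries were high. These ratios split each group, and the mean Slc4a1 to Alas2 ratio was 0.281 ± 0.208 (SD, n = 3) in sham and 0.279 ± 0.139 (SD, n = 3) in LAS libraries.

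**Figure D3:**
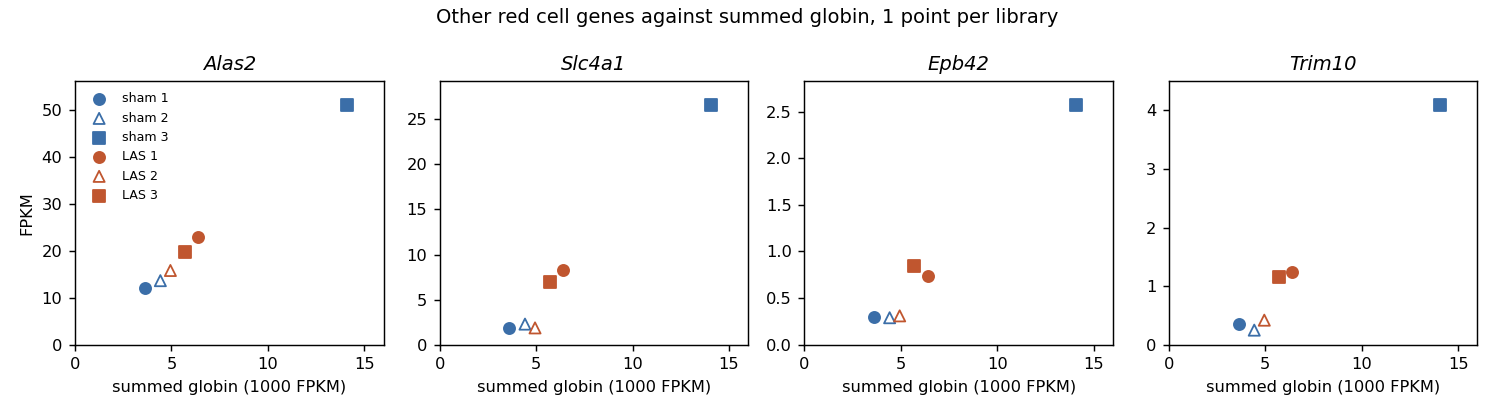
FPKM of Alas2, Slc4a1, Epb42 and Trim10 in each library against the summed FPKM of the 4 globin genes, with sham in blue and LAS in orange. Alas2 rises with globin through all 6 libraries, whereas Slc4a1, Epb42 and Trim10 vary little up to LAS replicate 2 (4943 FPKM of globin) and higher in LAS replicates 1 and 3 and sham replicate 3.

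Across the 6 libraries, Pearson correlations of the log2 levels between pairs of the 8 genes ran from 0.907 to 0.998. Over the 5 libraries without sham replicate 3 they ran from 0.631 to 0.993. The libraries share their depth and composition between genes, so these values describe the 6 libraries and no more.

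LAS and sham were compared for each gene by limma on log2(FPKM + 0.1), over the 14006 genes that reached 0.5 FPKM in 3 or more libraries. On this scale the size and sign of a small change in a low gene can depend on the pseudocount. A gene was called if its adjusted p was no more than 0.05 and its fold 1.5 or more. Of the 8 genes 0 were called in either direction, and 0% of all tested genes were called. At an unadjusted p of 0.05 or less there were 0 of the 8 genes and 495 of all tested genes, and 2.22% of all tested genes passed that level as higher in LAS libraries. For each of the 8 genes the groups overlapped, while every LAS library was above every sham library in 5.89% of all tested genes. The log2 fold change was -0.13 (standard error 0.46) for Hba-a1, -0.10 (standard error 0.50) for Hba-a2 and -0.08 (standard error 0.47) for Hbb-bs. It was -0.24 (standard error 0.53) for Hbb-bt and -0.08 (standard error 0.52) for Alas2. Of the membrane genes, Slc4a1 had -0.03 (standard error 1.04) and Epb42 -0.12 (standard error 0.77), and Trim10 had 0.12 (standard error 0.93). The adjusted p from limma was 1.00 for each of the 8. The median log2 fold change was -0.09 over the 8 genes and 0.00 over all tested genes.

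These directions depended on which libraries were used. Without LAS replicate 2, with the other 5 kept, 6 of 8 genes were higher in LAS libraries, with a median log2 fold change of 0.039, and only Hba-a2 and Hbb-bt were lower. Without sham replicate 1, sham replicate 2, LAS replicate 1 or LAS replicate 3 alone, 0 of 8 were higher. Without sham replicate 3 the mean log2 level was higher in LAS than in sham libraries for 8 of 8 genes and for 58.1% of all tested genes, against 1 of 8 genes and 51.7% with it. In 7 of 8 genes no LAS library was as low as the remaining sham libraries, against 17.6% of all tested genes, and Slc4a1 was the exception. The log2 fold change was then 0.45 (standard error 0.17) for Hba-a1, 0.53 (standard error 0.12) for Hba-a2, 0.52 (standard error 0.12) for Hbb-bs and 0.41 (standard error 0.22) for Hbb-bt. It was 0.58 (standard error 0.15) for Alas2, 1.17 (standard error 0.57) for Slc4a1, 0.80 (standard error 0.40) for Epb42 and 1.25 (standard error 0.44) for Trim10. None of the 8 was called, with adjusted p from limma between 0.341 and 0.556, and 5 had an unadjusted p no greater than 0.05. Of all tested genes 6.45% were higher at that unadjusted level. Epb42 and Trim10 were below 0.5 FPKM in both remaining sham libraries and had passed the filter through libraries in which they were high, which favours a higher LAS level for them. Of the other 6 genes, 6 were higher and 4 had an unadjusted p no greater than 0.05. Only 2 sham libraries were left in this comparison, and the genes share those libraries, so 5 such genes are not 5 separate results. Sham replicate 3 was also the highest library for each of the 8 genes, so leaving it out had to raise LAS relative to sham for all of them.

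**Figure D4:**
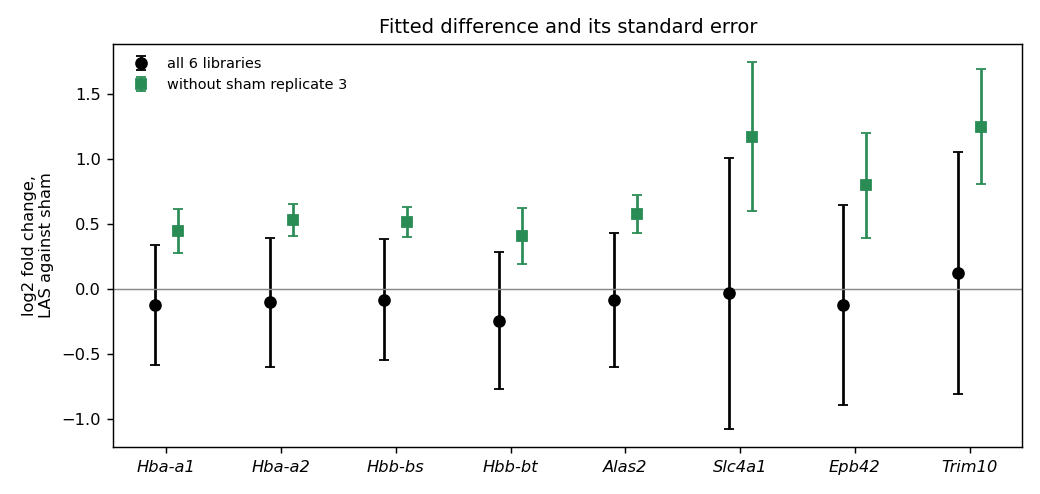
Log2 fold change of LAS against sham for each gene with its standard error from limma, for all 6 libraries (black circles) and without sham replicate 3 (green squares). The black values lie between -0.24 and 0.12 and the green ones between 0.41 and 1.25.

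LAS replicate 2 also moved a result. With both sham replicate 3 and LAS replicate 2 left out, Slc4a1 had a log2 fold change of 1.83 (standard error 0.14, adjusted p = 0.0282 from limma) and was the 1 gene of the 8 called. Of all tested genes 0.0357% were called in either direction and 0.0286% as higher. All 8 genes had an unadjusted p of 0.05 or less there, as had 7.79% of all tested genes among those higher in LAS. With LAS replicate 1 or LAS replicate 3 left out in its place 0 of the 8 were called, with 0% and 0.00714% of all tested genes called. Each of these comparisons had 2 libraries in each group. For each of the 8 genes sham replicate 3 was the highest sham library and LAS replicate 2 the lowest LAS library. Leaving out both therefore had to raise LAS relative to sham for all 8, Slc4a1 included. Epb42 and Trim10 had also passed the filter only through libraries in which they were high. The 8 low p-values and the Slc4a1 call are thus not independent of the choice of libraries.

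All 8 genes were highest in sham replicate 3, as were 33.4% of all tested genes. All 8 were there at least 3 times the mean of sham replicates 1 and 2, as were 2.44% of all tested genes. In 5 of 8 genes the order from high to low was sham replicate 3, LAS replicate 1, LAS replicate 3, LAS replicate 2 and then the other sham libraries. Of all tested genes 1.93% had that order.

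The wider red cell lists showed which other erythroid genes followed this pattern, and 0 of their members were called by limma over the 6 libraries. Of their 69 tested members 3 (4.35%) had an unadjusted p of 0.05 or less, against 3.53% of all tested genes. These were Hbq1a, Abcb6 and Steap3, all lower in LAS libraries. Their levels in sham replicate 3 were 0.907, 0.986 and 1.01 times the mean of sham replicates 1 and 2, so they did not share the pattern of the 8 genes. Of 8 other globin genes with values, 3 could be tested, with 1 higher and 2 lower in LAS libraries. Hbq1b, a theta globin, was at 1.74 to 3.86 FPKM in sham and 1.96 to 2.82 FPKM in LAS libraries. Hbq1a, its copy, was at 1.69 to 3.67 FPKM in sham and 1.32 to 1.62 FPKM in LAS libraries, with every LAS library below every sham library, as in 3.81% of all tested genes (log2 fold change -0.74, standard error 0.26, adjusted p = 1.00 from limma). Hbb-b1, an adult beta gene of another mouse haplotype, was at 0.01 to 1.60 FPKM, and the embryonic Hbb-y was listed at 0 in every library.

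Of 17 genes of heme synthesis and iron import, 4 were higher and 13 lower in LAS libraries, with a median log2 fold change of -0.07. For 14 of the 17 the maximum was in sham replicate 3. The most abundant members varied little. Slc25a39, a mitochondrial carrier, was at 94.6 to 117 FPKM, Urod, a heme synthesis enzyme, at 30.6 to 40.6 FPKM, and Fech, which inserts iron into the ring, at 25.3 to 36.8 FPKM. Without sham replicate 3, 11 were higher and 6 lower.

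The 18 membrane and surface genes included several that the ganglion held at high level in every library, and 15 were tested, with 3 higher and 12 lower. Dmtn, an actin-bundling protein, was at 95.7 to 108 FPKM, Tmod1, which caps actin filaments, at 96.4 to 106 FPKM, and Aqp1, a water channel, at 71.2 to 93.3 FPKM.

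Of 13 erythroid regulators 11 were tested, with 5 higher and 6 lower, and sham replicate 3 was the highest library for 10 of them. Lmo2, a partner of GATA1 that endothelial cells also express, was at 5.08 to 10.4 FPKM, Tfdp2, an E2F partner, at 5.44 to 6.05 FPKM, and Zfpm1, a cofactor of GATA1, at 3.90 to 7.47 FPKM. Klf1, Gata1 and Epor of this list were named after their values were seen. Klf1 was at 0.39, 0.42 and 5.42 FPKM in sham and at 1.02, 0.32 and 1.99 FPKM in LAS libraries. Gata1 was at 0.08, 0.19 and 1.96 FPKM in sham and at 1.06, 0.16 and 0.55 FPKM in LAS libraries. Epor was at 0.65, 0.31 and 2.20 FPKM in sham and at 1.47, 0.12 and 0.58 FPKM in LAS libraries, so LAS replicate 3 was below sham replicate 1 for it. In LAS replicate 2 none of Klf1, Gata1 and Epor was above both of the low sham libraries. Lmo2, at 6.46 FPKM there, did exceed its 5.55 and 5.08 FPKM in sham replicates 1 and 2. So did Lyl1, at 2.14 FPKM against 1.8 and 1.94 FPKM, and narrowly Nfe2, at 1.01 FPKM against 0.46 and 0.99 FPKM. Lyl1 and Nfe2 were also named after their values were seen. For 3 of the 11 tested regulators, which were Lmo2, Lyl1 and Nfe2, even the lowest LAS value exceeded both low sham values.

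Of 13 tested late erythroid genes 1 was higher and 12 were lower, and for 12 the maximum was in sham replicate 3. Prdx2, an antioxidant enzyme abundant in red cells, was at 158 to 206 FPKM, Ube2o, a ubiquitin-conjugating enzyme of reticulocytes, at 64.9 to 73.05 FPKM, and Car2, a carbonic anhydrase, at 34.0 to 88.3 FPKM. Some less abundant members of this list, named after their values were seen, differed more between libraries than Prdx2 and Ube2o. Car1, a carbonic anhydrase of red cells, was at 1.09, 1.18 and 9.21 FPKM in sham and at 3.46, 0.45 and 2.95 FPKM in LAS libraries. Bpgm, which makes the phosphoglycerate that lowers the oxygen affinity of hemoglobin, was at 13.6, 15.8 and 37.2 FPKM in sham and at 19.9, 14.9 and 17.5 FPKM in LAS libraries. Isg20, Tent5c and Tspo2 were at 3.63, 3.06 and 10.7 times the mean of sham replicates 1 and 2 in sham replicate 3. Tspo2 did not pass the filter and was at only 0.11 and 0.22 FPKM in sham replicates 1 and 2, so its ratio is uncertain. Other less abundant members differed little, such as Fbxo7 at 15.1 to 18.6 FPKM and Xpo7 at 16.5 to 18.2 FPKM. Of 10 tested genes that bind or clear hemoglobin, heme and iron, 3 were higher and 7 lower, with a median log2 fold change of -0.01. The ferritin chains Fth1 and Ftl1 were at 1329 to 1601 FPKM and at 481 to 587 FPKM, and Slc48a1, a heme transporter, at 98.6 to 116 FPKM.

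The libraries with the most red cell RNA also held more RNA of other blood and marrow cells, and the part of those cells in the results was not tested. All 12 mature neutrophil genes were highest in sham replicate 3, and their summed level was 80.1, 115 and 2225 FPKM in sham and 458, 133 and 292 FPKM in LAS libraries. All 8 genes of granulocyte precursors were highest there too, with sums of 8.49 to 206 FPKM in sham and 12.8 to 43.4 FPKM in LAS libraries. Proliferation genes, of which 7 of 12 were tested and all 7 were highest there, summed to 7.85, 9.71 and 56.6 FPKM in sham and to 18.1, 7.28 and 16.3 FPKM in LAS libraries. For the neutrophil and precursor lists the order of the libraries was that of summed globin, and for proliferation genes LAS replicate 2 was the lowest. B cell precursor genes summed to 5.18 to 25.0 FPKM in sham and 5.82 to 13.3 FPKM in LAS libraries, with 4 of 10 tested, all 4 highest in sham replicate 3.

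Platelet genes and lists of other tissues placed the libraries in other orders, though several of these lists were also highest in sham replicate 3. Platelet genes summed to 16.7, 18.8 and 50.1 FPKM in sham and to 51.7, 18.0 and 24.3 FPKM in LAS libraries. Of the 8 tested, 4 were highest in LAS replicate 1 and 4 in sham replicate 3. Skeletal muscle genes summed to 114, 337 and 2632 FPKM in sham and to 385, 174 and 111 FPKM in LAS libraries. Sham replicate 1 and LAS replicate 3 were about equally low. Pvalb alone was at 75.7 FPKM in sham replicate 1 and at 72.5 FPKM in LAS replicate 3, most of the sum there. All 12 tested muscle genes were highest in sham replicate 3. Adipocyte genes summed to 19.1, 10.01 and 86.6 FPKM in sham and to 13.8, 40.7 and 26.6 FPKM in LAS libraries, with 7 of 8 tested highest in sham replicate 3. Bone genes summed to 102 to 267 FPKM in sham and 127 to 153 FPKM in LAS libraries, with 6 of 6 tested highest in sham replicate 3. Most of that sum was Spp1, at 119, 89.0 and 167 FPKM in sham and at 103, 108 and 138 FPKM in LAS libraries. Bglap, which did not pass the filter, was at 0.19, 0 and 52.3 FPKM in sham and at 0, 1.95 and 0 FPKM in LAS libraries. Endothelial genes, which mark the vessels, summed to 97.2 to 125 FPKM in sham and 105 to 138 FPKM in LAS libraries, and 2 of 10 were highest in sham replicate 3. Macrophage genes summed to 81.8 to 278 FPKM in sham and 101 to 133 FPKM in LAS libraries. Most of the range came from Lyz2, a lysozyme that neutrophils also make, at 40.8, 37.4 and 210 FPKM in sham. Without Lyz2 the list summed to 60.3, 44.3 and 67.9 FPKM in sham and to 50.1, 52.7 and 46.4 FPKM in LAS libraries. Genes of satellite glia and Schwann cells summed to 7741 to 8558 FPKM in sham and 6701 to 9028 FPKM in LAS libraries. No gene of these lists was at 0 in all 6 libraries.

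**Figure D5:**
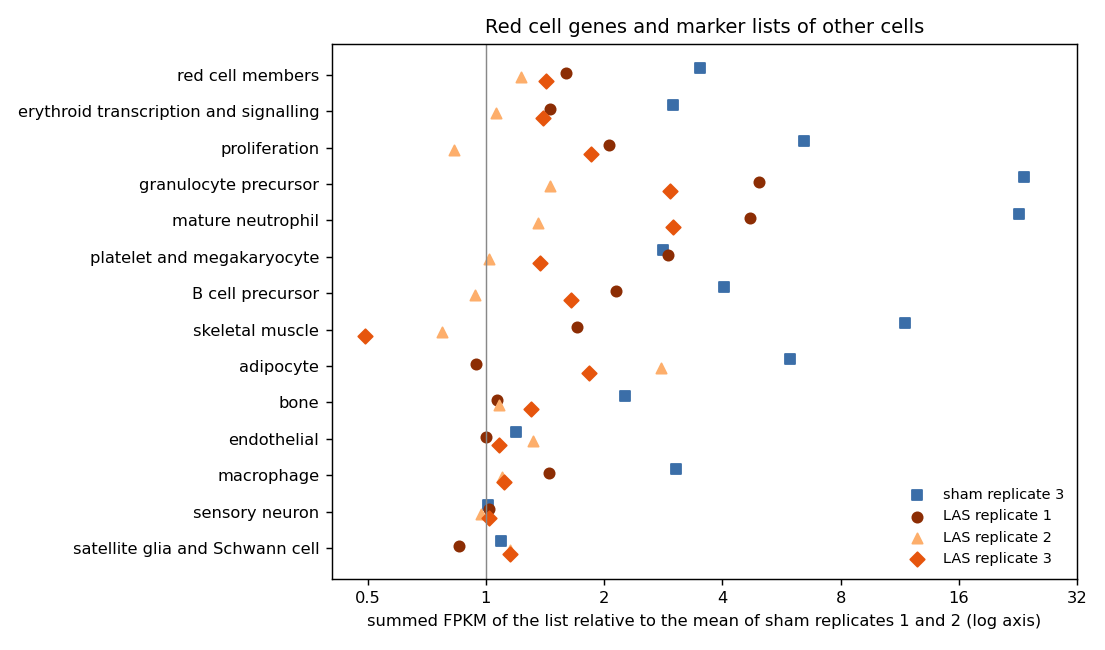
Summed FPKM of the 8 red cell genes and of marker lists in sham replicate 3 and the LAS libraries, divided by the mean of sham replicates 1 and 2, on a log axis. Neutrophil and granulocyte precursor genes reach 22.8 and 23.5 in sham replicate 3, the red cell genes 3.51, and sensory neuron genes stay between 0.969 and 1.02.

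Outside these lists, the 10 genes whose log2 level followed the mean of the 8 genes most closely over the 6 libraries had a Pearson correlation with it of 0.993 to 0.997. They were Trim59, Itgam, Fpr2, Ifitm6, Rac2, Mybl2, Psma2, Arhgap4, Itgb2 and Padi4. Itgam and Itgb2 encode the chains of an integrin of neutrophils and monocytes, and Fpr2 a formyl peptide receptor of the same cells. Itgam was at 0.95, 0.99 and 8.20 FPKM in sham and at 2.26, 1.19 and 1.90 FPKM in LAS libraries. Psma2, a proteasome subunit, followed the same order with a far smaller range, from 76.4 to 100.3 FPKM. Over the 5 libraries without sham replicate 3 the correlations of these 10 genes were 0.973 to 0.999. A correlation above 0.9 over the 6 libraries was found for 6.13% of all tested genes.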

How the data were processed

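The authors sequenced RNA of ipsilateral L3-5 DRG on a BGISEQ-500. After alignment to mouse, they deposited an FPKM value for each gene and library with 2 decimals. Neither the aligner nor the build or annotation is named in the sources used here. The deposited p-value, q-value and log2 fold change columns hold the authors' own comparison and were not used. Of 22064 gene rows, 2758 were blank and left out. The authors reported nearly equal numbers of clean reads for every library, but the reads behind each gene are unknown from FPKM values.

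Libraries were grouped by title. Levels as log2(FPKM + 0.1) were compared by limma 3.58.1 (R 4.3.3, trend option) with Benjamini-Hochberg adjustment over all 14006 genes passing the filter, and the script was tested on simulated data. An exact permutation test of 3 against 3 libraries cannot go below p = 0.10 and was not run. The 8 genes and all lists were chosen with earlier results of these data known. Also named are the 3 most abundant genes of each pathway list and the 10 genes with the most similar pattern. Klf1, Gata1, Epor, Car1, Bpgm, Isg20, Tent5c, Tspo2, Abcb6, Steap3, Lyz2, Slc25a37, Hp and Hbb-y were named after their values were seen. So were Lyl1, Nfe2, Fbxo7, Xpo7, Pvalb, Spp1 and Bglap. Some genes of the lists are not reported here. Coding sequences are the longest reading frames of GENCODE M21 transcripts, and promoter windows are from RefSeq. Other pseudocounts, filters, scalings, variance models, thresholds, a replicate block and sets of libraries were tried. Python 3.11.15, NumPy 2.4.6, pandas 2.3.3 and matplotlib 3.10.9 did the rest.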

Additional observations from a re-analysis of the deposited data

How the results depend on the processing

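Over the 6 libraries 0 of the 8 genes were called under every alternative of pseudocount, filter, scaling, variance model, block and threshold, and 0 when any 1 library was left out, with 0 genes called over all tested. The directions were less stable. Leaving out LAS replicate 2 alone also turned Hba-a1, Hbb-bs, Alas2, Slc4a1 and Epb42, with 6 of 8 higher, and Trim10 was lower without any 1 of sham replicates 1 and 2 and LAS replicates 1 and 3. With each library left out in turn, the log2 fold change ranged from -0.47 to 0.45 for Hba-a1, -0.52 to 0.53 for Hba-a2, -0.43 to 0.52 for Hbb-bs, -0.60 to 0.41 for Hbb-bt, -0.46 to 0.58 for Alas2, -0.70 to 1.17 for Slc4a1, -0.59 to 0.80 for Epb42 and -0.54 to 1.25 for Trim10. The number of the 8 genes that were higher in LAS ranged from 0 to 8 and their median log2 fold change from -0.50 to 0.56. With a pseudocount of 1, Trim10 was at -0.11 and 0 of the 8 genes were higher. Under quantile normalization Hba-a2 was at 0.11 and Hbb-bs at 0.031, with 3 genes higher. With array weights the values were 0.33 for Hba-a1, 0.43 for Hba-a2, 0.41 for Hbb-bs, 0.22 for Hbb-bt, 0.47 for Alas2, 1.15 for Slc4a1, 0.79 for Epb42 and 1.20 for Trim10, and 8 genes were higher. With sham replicate 3 and LAS replicate 1 both left out they were 0.28 for Hba-a1, 0.51 for Hba-a2, 0.43 for Hbb-bs, 0.17 for Hbb-bt, 0.45 for Alas2, 0.78 for Slc4a1, 0.65 for Epb42 and 1.01 for Trim10, and 8 were higher. With sham replicate 3 and LAS replicate 2 left out they were 0.59 for Hba-a1, 0.59 for Hba-a2, 0.61 for Hbb-bs, 0.53 for Hbb-bt, 0.72 for Alas2, 1.83 for Slc4a1, 1.17 for Epb42 and 1.69 for Trim10, with 8 higher, 1 of the 8 called (Slc4a1) and 5 genes called over all tested. With sham replicate 3 and LAS replicate 3 left out they were 0.46 for Hba-a1, 0.50 for Hba-a2, 0.51 for Hbb-bs, 0.53 for Hbb-bt, 0.56 for Alas2, 0.91 for Slc4a1, 0.57 for Epb42 and 1.06 for Trim10, with 8 higher and 1 gene called over all tested. The array weight was 0.208 for sham replicate 3 and 0.854 to 2.24 for the others, and the left-out pairs have fewer libraries by construction. Sham replicate 3 was the highest library for all 8 genes, so leaving it out had to raise LAS relative to sham. LAS replicate 2 was the lowest LAS library for all 8. The cause for the pseudocount and quantile values was not tested. Under TPM rescaling 60.0% of all tested genes were higher in LAS, against 51.7% as deposited, and no scaling moved the median of all genes by over 0.1.

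The replicate numbers were also fitted as a block. Deviations of same-numbered sham and LAS libraries from their group means correlated at -0.41, 0.24 and -0.15. With 3 libraries in each group, and sham replicate 3 apart from the rest, these values can neither show nor exclude a pairing by number. With the replicate block 0 of the 8 genes and 0 genes over all were called, with a median log2 fold change of -0.09. The number of reads behind each gene cannot be told from FPKM. Epb42 and Trim10 were at levels where the rounding of the values limits what can be compared. A filter of 1 FPKM in 3 libraries left no value for Epb42.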

Other observations

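A pair of genes of iron import and hemoglobin clearance, picked after their values were seen, showed the placing of the libraries to different degrees. Slc25a37, the mitoferrin that brings iron into mitochondria of erythroid cells, was at 5.59, 5.92 and 14.4 FPKM in sham and at 8.81, 6.65 and 8.44 FPKM in LAS libraries. Hp, which encodes haptoglobin, the plasma protein that binds free hemoglobin and is also made by neutrophils in the mouse, was at 1.54, 1.23 and 30.2 FPKM in sham and at 6.04, 3.95 and 5.51 FPKM in LAS libraries. Both were highest in sham replicate 3, and no LAS library was as low as sham replicate 1 or 2.

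The level above the mean of sham replicates 1 and 2 was also worked out, after the values were seen. In sham replicate 3 there were 2.43 FPKM of additional Slc4a1 for each 1000 FPKM of additional globin, and in LAS replicates 1 and 3 there were 2.62 and 2.90 FPKM. In LAS replicate 2, which had 929 FPKM of additional globin, Slc4a1 was lower than that mean by 0.215 FPKM. Additional Alas2 came to 3.79 FPKM for each 1000 FPKM of additional globin in sham replicate 3 and to 4.18, 3.15 and 4.02 FPKM in LAS replicates 1, 2 and 3. Additional Trim10 came to 0.376 FPKM in sham replicate 3 and to 0.392, 0.124 and 0.499 FPKM in the LAS libraries.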
